A study of Mus musculus with 14 samples.

Results

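The mRNAs of 10 genes that build, load and supply major histocompatibility complex (MHC) class I molecules were followed in 5 lines of mouse ovarian cancer cells grown as tumorspheres, out of 35275 genes in the deposited expression table. The genes are the heavy chains H2-K1, H2-D1, H2-Q1 and H2-Q4, the light chain B2m, the peptide transporter subunits Tap1 and Tap2, the loading factor Tapbp, and the immunoproteasome subunits Psmb8 and Psmb9. They were chosen by name, and all 10 were found in the table. H2-Q1 was added because its level was high in the cells with active β-catenin in these same samples, so its values are given as a description and were not tested. The starting line, KMF, came from C57Bl6 ID8 ovarian epithelial cells that had been passaged in vivo. FAK KO is 1 clone of KMF, KT13, in which Ptk2, the gene of focal adhesion kinase (FAK), was disrupted with CRISPR in an early exon. FAK-WT cells are KT13 cells that re-express GFP-FAK from a lentivirus, and FAK-R454 cells are KT13 cells with a GFP-FAK point mutant that lacks kinase activity. β-catenin ΔGSK cells are KT13 cells with a retroviral β-catenin that lacks its GSK3β phosphorylation sites, made in a vector that also expresses GFP. These 3 lines therefore share the disrupted Ptk2 of the clone and were also selected for the vector they carry. No KT13 line with an empty vector is among the 5, so transgene, vector and selection cannot be told apart. Every line was cultured without attachment in PromoCell XF medium for 5 days, with no drug, and there were 3 samples per line except for FAK-R454, which had 2 (the methods of the study describe 1 more, which was not analysed here).

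MHC class I molecules show short peptides from inside the cell to CD8 T cells. Proteasomes cut proteins into peptides, the TAP1 and TAP2 transporter carries them into the endoplasmic reticulum, tapasin (Tapbp) holds an empty heavy chain beside the transporter, and a heavy chain leaves for the surface only with β2-microglobulin (B2m) and a peptide. H2-K1 and H2-D1 encode the classical heavy chains, which are found on most cells, while the H2-Q genes belong to the neighbouring non-classical group that encodes Qa molecules. Interferon-γ raises much of this set through IRF1 and NLRC5, and it also exchanges catalytic subunits of the proteasome for PSMB8, PSMB9 and PSMB10.

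The promoters of 4 genes are shown because 3 of them encode heavy chains that were high in β-catenin ΔGSK cells and the other encodes their shared light chain, which was not. Promoters of 8 of the 10 genes were in the RefSeq table used (GRCm38.p6), and those of H2-Q1 and Tap2 were not in it. Each sequence runs from 250 bases before to 50 bases after the annotated start, written 5′ to 3′ on the strand of the gene, with matches to the searched motifs in capitals. H2-K1 lies on the minus strand at chr17:34000298-34000597, H2-D1 on the plus strand at chr17:35262844-35263143, H2-Q4 on the plus strand at chr17:35379367-35379666, and B2m on the plus strand at chr2:122147437-122147736.
H2-K1: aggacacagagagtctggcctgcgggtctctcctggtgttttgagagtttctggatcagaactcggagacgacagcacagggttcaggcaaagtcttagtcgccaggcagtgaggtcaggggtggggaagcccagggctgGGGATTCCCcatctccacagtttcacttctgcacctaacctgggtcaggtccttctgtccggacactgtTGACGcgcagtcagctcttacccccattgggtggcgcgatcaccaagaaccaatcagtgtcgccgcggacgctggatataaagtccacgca
H2-D1: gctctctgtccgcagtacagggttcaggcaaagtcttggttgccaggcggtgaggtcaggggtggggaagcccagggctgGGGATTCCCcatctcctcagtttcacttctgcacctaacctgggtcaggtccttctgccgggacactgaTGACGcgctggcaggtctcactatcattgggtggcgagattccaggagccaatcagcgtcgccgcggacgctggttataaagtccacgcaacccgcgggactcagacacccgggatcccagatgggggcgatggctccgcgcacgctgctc
H2-Q4: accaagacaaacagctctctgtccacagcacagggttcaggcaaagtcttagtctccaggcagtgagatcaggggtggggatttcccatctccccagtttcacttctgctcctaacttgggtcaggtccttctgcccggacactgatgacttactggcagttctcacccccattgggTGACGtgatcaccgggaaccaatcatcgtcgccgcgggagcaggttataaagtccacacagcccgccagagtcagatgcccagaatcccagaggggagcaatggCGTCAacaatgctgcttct
B2m: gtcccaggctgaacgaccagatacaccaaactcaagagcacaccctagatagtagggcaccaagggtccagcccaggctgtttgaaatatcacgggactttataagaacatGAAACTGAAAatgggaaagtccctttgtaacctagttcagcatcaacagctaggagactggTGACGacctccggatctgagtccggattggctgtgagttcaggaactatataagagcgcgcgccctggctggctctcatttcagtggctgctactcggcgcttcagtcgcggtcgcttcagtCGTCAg

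The motifs, searched on both strands, were the core of an interferon-stimulated response element, GGGANTCCC (an NF-κB form), TGACG (a CRE core), and CTTTGNNG and CTTTGNNC (TCF/LEF cores). The NF-κB form was found in the windows of H2-K1 and H2-D1, where its first base lay 110 and 170 bases before the start, and it reads the same on both strands. The H2-Q4 window holds gggatttccc, a longer stretch that the letters searched cannot match. Of 32851 mouse promoters of the same length, 0.767% held that form. The interferon core occurred in the B2m window, 139 bases before the start, and in 3.44% of all promoters. The windows of H2-K1, H2-D1 and H2-Q4 all hold agtttcacttct, which the letters searched cannot match. The CRE core was present in all 4 windows and in 20.8% of all promoters. The TCF/LEF cores, in 17.4% and 17.2% of all promoters, were in none of the 4 windows, and of the 8 promoters only Tapbp had a match, to the second form on the minus strand. Aligned windows were 88.3% identical between H2-K1 and H2-D1, 83.5% between H2-K1 and H2-Q4, and 83.1% between H2-D1 and H2-Q4. A match is a description of letters and does not show that a factor binds.

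Values are FPKM, fragment counts scaled to the length of the gene and the size of the library. The length is that of the longest transcript, which for H2-K1, H2-Q1, H2-Q4, Tap1, Psmb8 and Psmb9 is one with a retained intron and longer than the longest coding transcript (2860 against 2024 bases for H2-Q1, 3911 against 2953 for Tap1). Levels of these genes per coding transcript could therefore be higher than the values given, alike in all lines, and ratios between genes shift with them. The libraries held 25390558 to 35289859 fragments on genes. Of 10 epithelial and mesothelial markers expected of ID8 cells, 8 or 9 were above 1 FPKM in every line, and they summed to 1118 to 1835 FPKM per library. Of 12 leukocyte markers only Cd68, a lysosomal protein of macrophages that other cells also express, exceeded 1 FPKM, 6 to 9 were at 0 depending on the line, and Ptprc, which marks all leukocytes, was at or near 0 throughout. Of 5 fibroblast markers Dcn, Pdgfra and Col1a1 exceeded 1 FPKM on average in FAK KO cells, while Thy1 and Lum were at or near 0 in every line. Ptk2 mRNA was 20.5, 17.6 and 18.9 FPKM in FAK KO cells and 24.8, 24.2 and 23.9 FPKM in KMF cells. A small edit can leave the transcript in place, so this level says little about loss of the protein. FAK-WT replicate 3 and KMF replicate 3 stood furthest apart from the other samples of their lines. The chi-square of fragment counts per degree of freedom was 42.5 and 30.5 for FAK-WT replicate 3 against replicates 1 and 2, where those differed by 3.15, and 23.8 and 29.05 for KMF replicate 3, where the other pair differed by 4.593. β-catenin ΔGSK replicate 1 differed by 18.07 and 30.41 from replicates 2 and 3, which differed by 8.749, and the FAK KO pairs differed by 8.166 to 22.2, most between replicates 1 and 2. Results are therefore also given without a sample where they move.

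The classical heavy chains H2-K1 and H2-D1 were expressed in every library and were highest in β-catenin ΔGSK cells. H2-K1 (ENSMUSG00000061232, chromosome 17, 33996017 to 34000333, minus strand, GRCm38) was at 14.4, 15.8 and 12.01 FPKM in FAK KO cells and at 44.3, 58.1 and 35.6 FPKM in β-catenin ΔGSK cells. In KMF cells it was at 21.0, 19.7 and 28.0 FPKM, and in FAK-R454 cells at 14.9 and 16.3 FPKM. The FAK-WT samples had 13.5, 14.6 and 35.4 FPKM. Thus the β-catenin ΔGSK samples lay above all samples of the other lines, and FAK-WT replicate 3 came close to the lowest of them while replicates 1 and 2 lay within the range of FAK KO. H2-D1 (ENSMUSG00000073411, chromosome 17, 35262730 to 35267499, plus strand) varied much less between samples of a line. The FAK KO samples had 33.3, 40.1 and 36.8 FPKM, the KMF samples 52.0, 51.9 and 48.5 FPKM, and the β-catenin ΔGSK samples 65.6, 71.4 and 68.8 FPKM. Levels in FAK-WT cells were 41.5, 42.1 and 38.9 FPKM, and those in FAK-R454 cells were 40.9 and 38.4 FPKM. The β-catenin ΔGSK samples and, below them, the KMF samples did not overlap any other line, whereas FAK-WT, FAK-R454 and FAK KO overlapped. As a result H2-D1 exceeded H2-K1 by 2.64 ± 0.391 times in FAK KO cells but by 1.55 ± 0.357 times with active β-catenin (SD, n = 3 each).

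**Figure D1:**
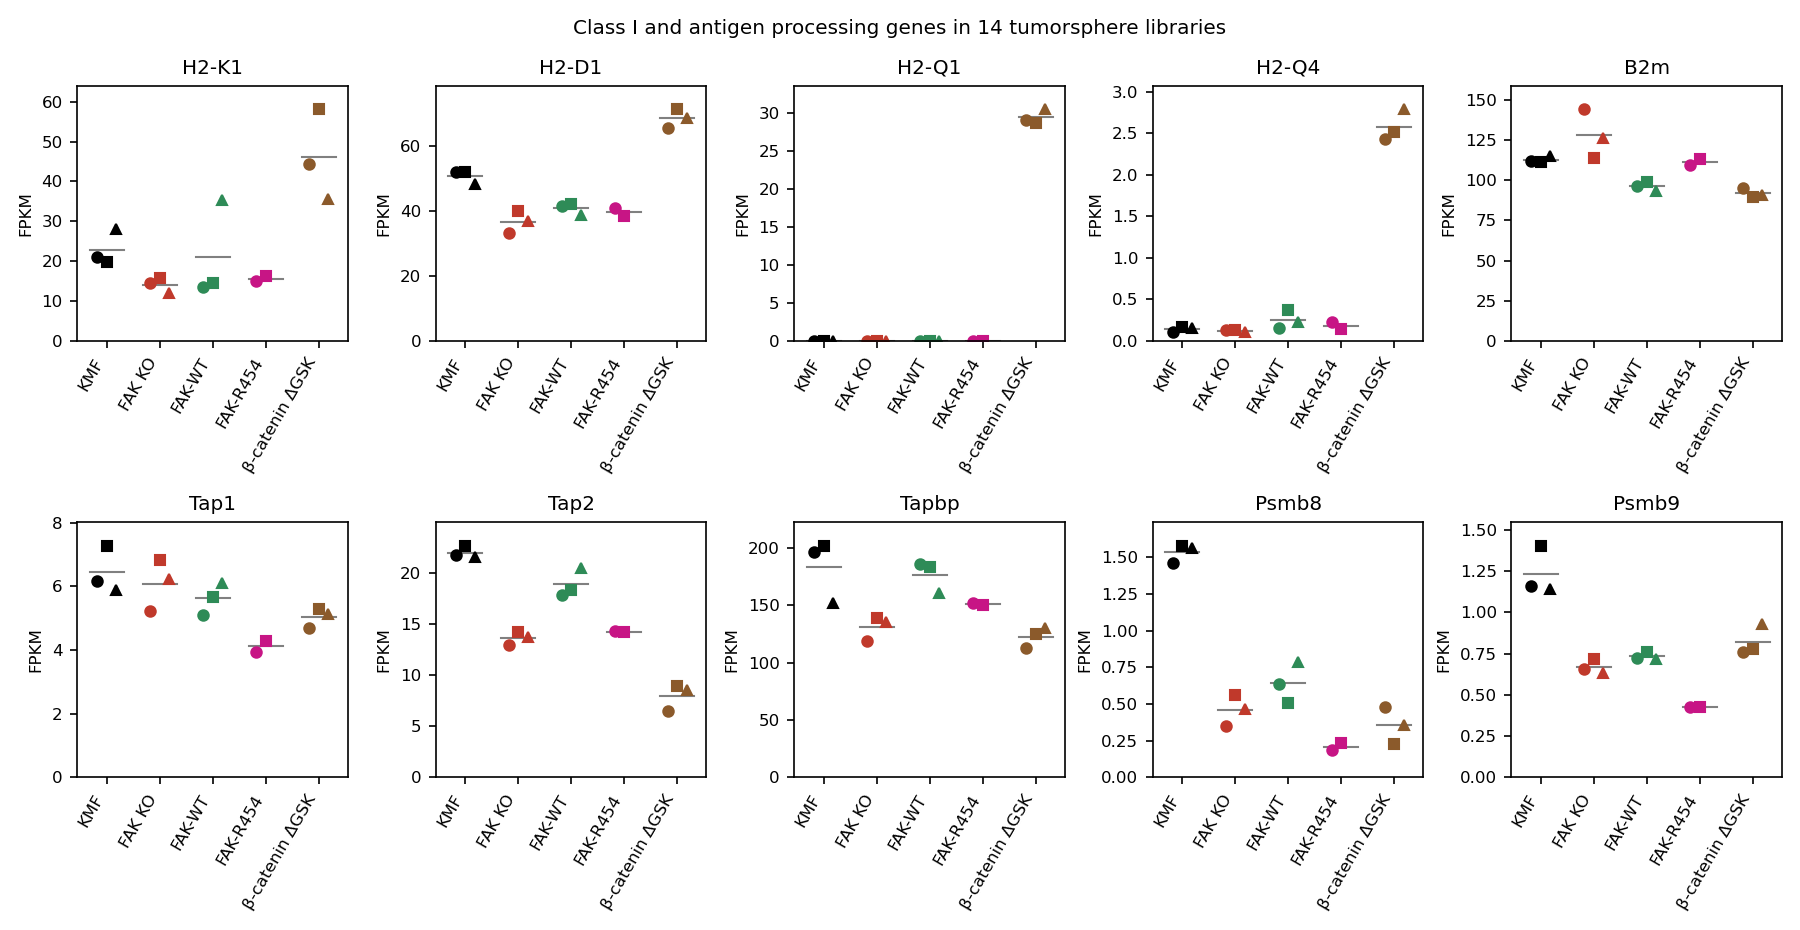
FPKM (vertical axes, each from 0) of the 10 genes in the 14 libraries of 5 lines, with replicate 1 as a circle, replicate 2 as a square, replicate 3 as a triangle and the line mean as a grey bar. H2-K1, H2-D1, H2-Q1 and H2-Q4 are highest in β-catenin ΔGSK cells, where H2-Q1 lies between 28.7 and 30.5 FPKM, while Tap2 is lowest there at 6.46 to 8.90 FPKM.

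H2-Q1 and H2-Q4, both in the Q region, were scarce in 4 lines and present in β-catenin ΔGSK cells. H2-Q1 (ENSMUSG00000079507, chromosome 17, 35320405 to 35325099, plus strand) was at 29.0, 28.7 and 30.5 FPKM in β-catenin ΔGSK cells, from 2357, 2085 and 2567 fragments. It had 0 fragments in each FAK KO and each FAK-R454 library, 1, 1 and 2 fragments in the FAK-WT libraries, and 0, 1 and 0 in the KMF libraries. These values chose the gene and are not a test. A count of 0 allows up to 3 fragments, or 0.0402 FPKM in the shallowest FAK KO library, which covers counting error only. H2-Q4 (ENSMUSG00000035929, chromosome 17, 35379617 to 35385290, plus strand) was at 2.43, 2.52 and 2.79 FPKM in β-catenin ΔGSK cells, against 0.128, 0.133 and 0.110 FPKM in FAK KO cells. The FAK-R454 samples were at 0.222 and 0.146 FPKM. The other lines reached at most 0.166 FPKM in KMF and 0.373 FPKM in FAK-WT cells, so that only the β-catenin ΔGSK samples stood apart. The log2 fold change of H2-Q4 over FAK KO was 3.58 (standard error 0.18, adjusted p = 8.86e-07, limma), and it entered that test only through its level in β-catenin ΔGSK cells.

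Class I genes have similar copies, and how fragments that fit several copies were assigned is not given in the sources used here. Of the 150-base windows of the longest H2-Q1 transcript, 3.21% occurred exactly in another gene, H2-Q2 or H2-D1, and its longest stretch shared with H2-D1 was 184 bases. The corresponding shares were 1.79% for H2-D1, shared with H2-Q1, and 0% for H2-K1 and H2-Q4. Fragments in these stretches could be split between copies, which bears on part of the H2-Q1 and H2-D1 levels. Shorter exact stretches were also shared, up to 91 bases of H2-K1 with H2-D1 and with H2-Q1, and 77 bases of H2-Q4 with H2-Q1. Windows that differ by a few bases were not counted, so more fragments may fit several copies than these shares show. The part of such fragments in the H2-K1 and H2-Q4 levels was not tested. H2-Q2 reached at most 0.108 FPKM in any library, H2-Q6, H2-Q7 and H2-Q10 stayed at or under 0.0374 FPKM, and H2-Q3 and H2-Q5, both pseudogenes in the table, were at 0 in each line. Within 300 kb of the start of H2-Q1, 19 of 55 genes exceeded 1 FPKM in some line. H2-Q1 and H2-Q4 were among these 19 only through their β-catenin ΔGSK level, so that their rise in this set is fixed by how it was chosen. The 17 other genes stayed within 2-fold between β-catenin ΔGSK and FAK KO cells. H2-D1 lies 57.7 kb before H2-Q1 and H2-Q4 59.2 kb after it.

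**Figure D2:**
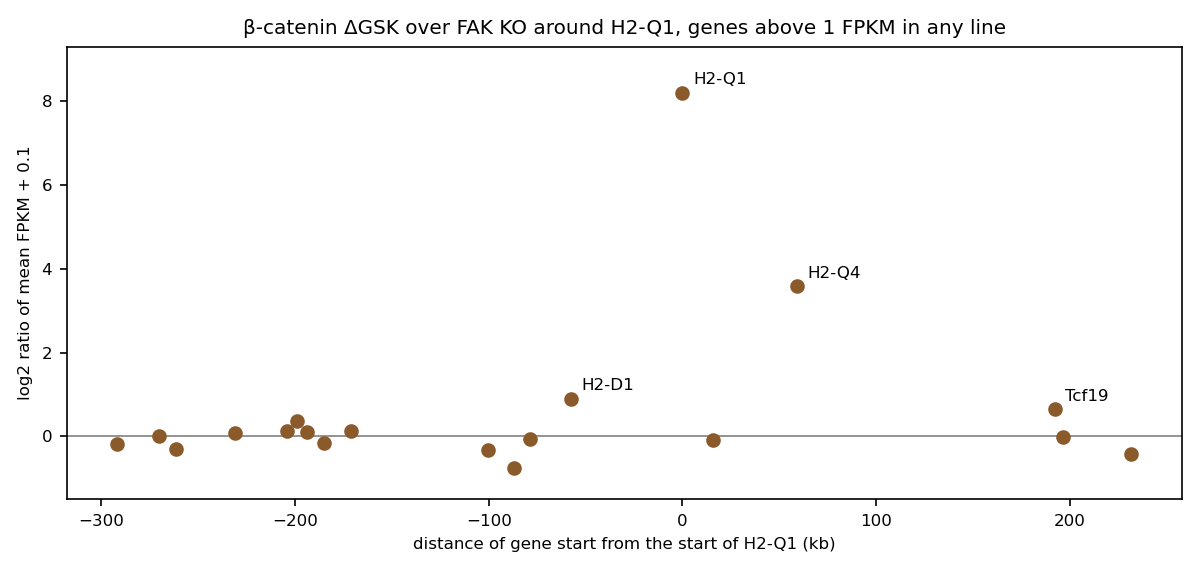
The log2 ratio of mean FPKM + 0.1 in β-catenin ΔGSK over FAK KO cells (vertical axis), for the 19 genes above 1 FPKM in any line, by distance of their start from that of H2-Q1 in kb. H2-Q1 and H2-Q4 stand at 8.21 and 3.58, and the 17 other genes lie within 1 of 0.

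The light chain did not follow the heavy chains. B2m (ENSMUSG00000060802, chromosome 2, 122147686 to 122153083, plus strand) was at 144.2, 113.8 and 126.5 FPKM in FAK KO cells and at 95.4, 89.5 and 90.5 FPKM in β-catenin ΔGSK cells. The FAK-WT samples had 96.3, 98.8 and 93.2 FPKM, the FAK-R454 samples 109.7 and 113.5 FPKM, and the KMF samples 112.0, 111.4 and 115.3 FPKM. FAK KO lay above FAK-WT and β-catenin ΔGSK without overlap, and the range of KMF and FAK-R454 lay between those lines apart from the lowest FAK KO sample. Summed over H2-K1, H2-D1, H2-Q1 and H2-Q4, heavy chain mRNA averaged 50.9 ± 4.46 FPKM over the FAK KO samples, 73.8 ± 2.49 FPKM over KMF and 146.6 ± 12.4 FPKM over β-catenin ΔGSK (SD, n = 3 each). B2m mRNA per heavy chain mRNA was 2.54 ± 0.494 in FAK KO, 2.01 ± 0.0771 in FAK-R454 (n = 2), 1.58 ± 0.282 in FAK-WT, 1.53 ± 0.0231 in KMF and 0.630 ± 0.0638 in β-catenin ΔGSK cells (SD, n = 3 unless given). β-catenin ΔGSK was thus the only line in which every sample held less B2m than heavy chain mRNA, and H2-Q1, which was chosen for its level there, made up 20.2% ± 2.17 of its heavy chain mRNA. H2-K1 and H2-D1 alone summed to 114.6 ± 13.2 FPKM in that line and 50.8 ± 4.45 FPKM in FAK KO cells.

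**Figure D3:**
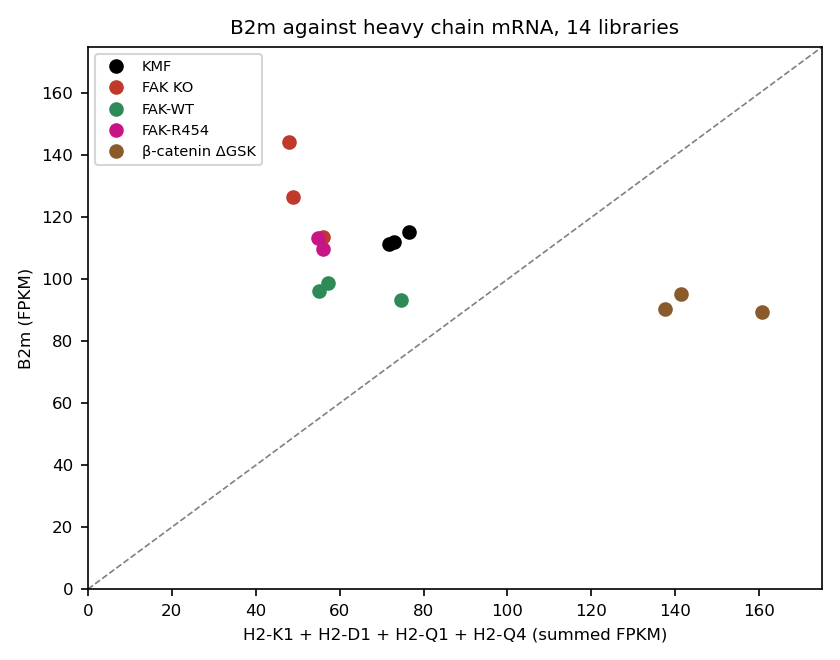
B2m FPKM (vertical axis) against the summed FPKM of H2-K1, H2-D1, H2-Q1 and H2-Q4 (horizontal axis) in each of the 14 libraries, coloured by line, with the line of equal levels dashed. The 3 β-catenin ΔGSK libraries lie right of the dashed line at 137.7 to 160.8 FPKM of heavy chain mRNA, and the 11 other libraries lie left of it.

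Of the peptide transporter genes, Tap2 was lowest in β-catenin ΔGSK cells, where the heavy chains were highest, and Tap1 varied less between lines. Tap2 (ENSMUSG00000024339, chromosome 17, 34203527 to 34216321, plus strand) was at 21.7, 22.7 and 21.6 FPKM in KMF cells, 12.9, 14.2 and 13.7 FPKM in FAK KO cells and 17.9, 18.4 and 20.5 FPKM in FAK-WT cells. It was at 14.4 and 14.2 FPKM in FAK-R454 cells and at 6.46, 8.90 and 8.57 FPKM in β-catenin ΔGSK cells. The samples of the 5 lines did not overlap, in the order KMF, FAK-WT, FAK-R454, FAK KO and β-catenin ΔGSK, although FAK-R454 and FAK KO differed little. Tap1 (ENSMUSG00000037321, chromosome 17, 34187553 to 34197225, plus strand) encodes the partner subunit and stayed between 3.95 FPKM in a FAK-R454 sample and 7.28 FPKM in a KMF sample. The FAK KO samples had 5.21, 6.82 and 6.23 FPKM, the FAK-WT samples 5.11, 5.67 and 6.11 FPKM, and the FAK-R454 samples 3.95 and 4.29 FPKM. The β-catenin ΔGSK samples had 4.68, 5.28 and 5.14 FPKM, and the KMF samples 6.18, 7.28 and 5.88 FPKM. Only FAK-R454 stood apart, below the other 4 lines. Tap2 exceeded Tap1 by 1.58 ± 0.172 times in β-catenin ΔGSK cells and by 2.26 ± 0.206 (FAK KO) to 3.47 ± 0.232 times (FAK-R454, n = 2) in the other lines (SD, n = 3 unless given).

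Tapbp (ENSMUSG00000024308, chromosome 17, 33915899 to 33929288, plus strand), the gene of tapasin, had the highest mean of the members in every line, although in FAK KO cells its samples overlapped those of B2m. Its FPKM was 119.0, 139.4 and 135.9 in the FAK KO samples, 185.7, 183.5 and 161.2 in FAK-WT, and 151.9 and 150.6 in FAK-R454. It was 112.5, 124.9 and 130.0 in the β-catenin ΔGSK samples and 196.6, 202.1 and 152.4 in KMF. KMF and FAK-WT overlapped at the top, β-catenin ΔGSK and FAK KO at the bottom, and FAK-R454 lay between them, just under the lowest KMF sample. Tapbp shares 3421 bases with Zbtb22, a gene on the same strand that reached a line mean of 33.7 FPKM, so some fragments may belong to either gene. Tap1 and Psmb9 overlap by 212 bases on opposite strands, and the library kit does not mark strand.

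The immunoproteasome subunits Psmb8 and Psmb9 were low in all lines. Psmb8 (ENSMUSG00000024338, chromosome 17, 34197721 to 34201454, plus strand) replaces Psmb5 and was at 1.46, 1.58 and 1.56 FPKM in KMF cells, against 0.348, 0.563 and 0.468 FPKM in FAK KO cells. It was at 0.633, 0.508 and 0.785 FPKM in FAK-WT, 0.189 and 0.232 FPKM in FAK-R454, and 0.480, 0.227 and 0.356 FPKM in β-catenin ΔGSK cells. Psmb9 (ENSMUSG00000096727, chromosome 17, 34181988 to 34187764, minus strand) replaces Psmb6 and had an FPKM of 1.16, 1.40 and 1.14 in the KMF samples and of 0.656, 0.718 and 0.632 in FAK KO. It was at 0.721, 0.762 and 0.718 in FAK-WT, 0.424 and 0.427 in FAK-R454, and 0.757, 0.778 and 0.931 in β-catenin ΔGSK. For both genes the KMF samples lay above all others. The FAK-R454 samples lay below all others for Psmb9, while for Psmb8 they overlapped β-catenin ΔGSK. Psmb8 rested on 10 to 105 fragments per library and Psmb9 on 34 to 116. The constitutive subunits were far higher, with Psmb5 at 118.2 to 143.2 FPKM, Psmb6 at 152.2 to 175.5 FPKM and Psmb7 at 94.5 to 121.1 FPKM as line means. Psmb5 per Psmb8 was 77.3 ± 6.39 in KMF cells and 321.0 ± 63.2 in FAK KO cells, and Psmb6 per Psmb9 was 130.0 ± 17.4 and 241.3 ± 9.60 (SD, n = 3 each). For Psmb9 the length used was 2884 bases, against 1352 in its longest coding transcript. The remaining induced subunit, Psmb10, was higher, at 17.4 ± 2.45 FPKM in FAK KO, and rose to 27.3 ± 3.27 FPKM with active β-catenin (SD, n = 3 each). The log2 difference was 0.65 (standard error 0.12, adjusted p = 0.00163, limma).

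**Figure D4:**
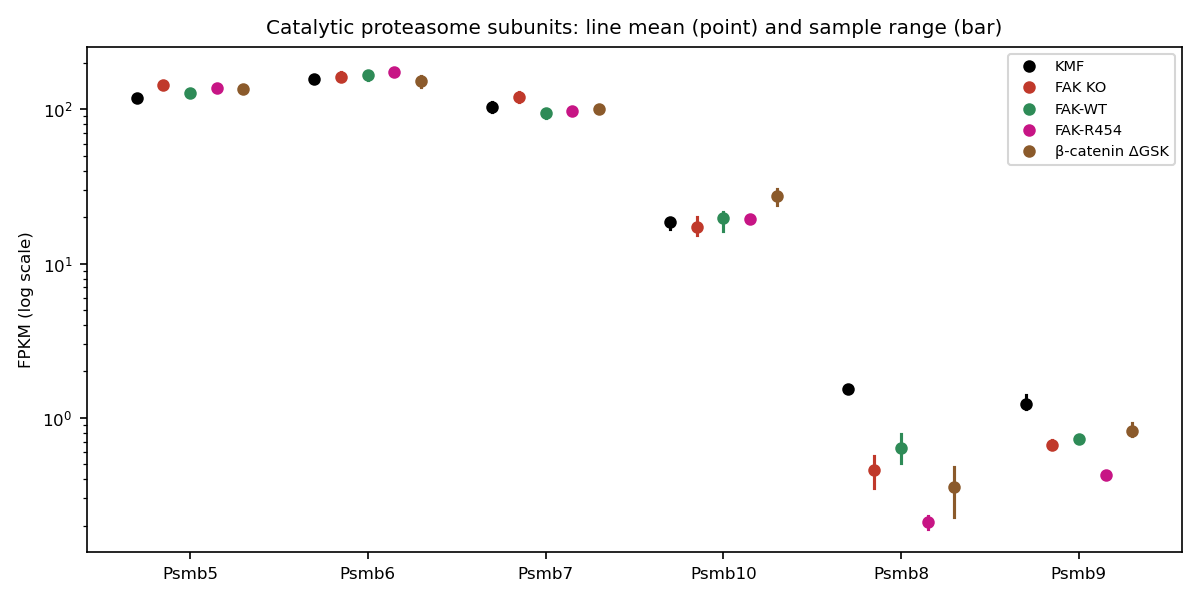
FPKM on a log scale (vertical axis) of the constitutive catalytic subunits Psmb5, Psmb6 and Psmb7 and the induced subunits Psmb10, Psmb8 and Psmb9 in the 5 lines, with the line mean as a point and the range of its samples as a bar. Psmb8 and Psmb9 lie below 2 FPKM in every line, while the means of the constitutive subunits are at 94.5 FPKM or more.

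Changes between lines were tested with limma across all genes whose mean was above 1 FPKM in at least 1 of the lines compared, on the log2(FPKM + 0.1) scale, which understates changes of low genes. A gene was taken as changed at any fold if the p-value adjusted after Benjamini and Hochberg stayed under 0.05. H2-K1, H2-D1, B2m, Tap1, Tap2 and Tapbp, the 6 members above 1 FPKM in every line, were tested in all 5 comparisons. H2-Q4, Psmb8 and Psmb9 entered a test only through the line in which they were high and are not counted. The labels call the samples of a line independent samples of RNA, and by the methods of the study those of KMF were taken at different passages. Whether the samples of the other lines came from separate cultures is not given in the sources used here, so p-values measure only the spread between these samples, which may be technical. In bulk RNA, fewer expressing cells and less RNA per cell cannot be told apart. An exact permutation test of a gene could not fall below 0.1 with 3 against 3 samples or 0.2 with 2 against 3. The 4 comparisons with FAK KO share its 3 samples.

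Parental KMF cells against the FAK KO clone asks what differs where FAK was lost, with the clone itself as part of the difference. Of the 6 members 4 were higher in KMF and 0 lower, where 23.1% of 11893 genes tested were higher and 28.7% lower, and their median log2 fold change was 0.47 against -0.05 for all genes tested. At an unadjusted p under 0.05, or with limma-voom on the recovered fragments, the count of lower members was also 0. Without FAK KO replicate 2, however, B2m was called lower, at -0.26 (adjusted p = 0.0236, limma). On the log2 scale Tap2 rose by 0.69 (standard error 0.06, adjusted p = 5.43e-05, limma), H2-K1 by 0.69 (standard error 0.14, adjusted p = 0.00411) and H2-D1 by 0.47 (standard error 0.08, adjusted p = 0.00139). Tapbp was higher by 0.47 (standard error 0.11, adjusted p = 0.00848, limma). With all samples B2m, at -0.18 with a 95% interval from -0.38 to 0.02, and Tap1, at 0.08 with an interval from -0.19 to 0.36, did not pass. Psmb8 rose by 1.56 (adjusted p = 0.000263) and Psmb9 by 0.79 (adjusted p = 0.00422, limma), both tested only because of their KMF level. Without KMF replicate 3 the 4 members were still higher, H2-K1 by 0.54. All members but B2m lie on chromosome 17, where the median log2 fold change of the 574 genes tested was 0.21 against -0.06 for other chromosomes. Relative to their chromosome, Tapbp was higher by 0.23 and lost its call (adjusted p = 0.146, limma), while H2-D1 was higher by 0.23 (adjusted p = 0.0432), H2-K1 by 0.45 (adjusted p = 0.0263) and Tap2 by 0.45 (adjusted p = 0.000934). With 1 fit of all lines H2-K1 missed the threshold (adjusted p = 0.0583, limma). Of the fibroblast markers Pdgfra and Col1a1 were higher in KMF, by 1.55 and 0.87, and Dcn was lower, at -1.57. Their sum was 41.8 to 49.8 FPKM in KMF and 90.0 to 126.6 FPKM in FAK KO cells. Of 8 epithelial and mesothelial markers tested 3 were higher in KMF and 2 lower. The part of these markers in the class I values was not tested.

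FAK-WT against FAK KO asks what differs where the clone re-expresses GFP-FAK, with vector and selection as part of the difference. Of the 6 members 2 were higher and 1 lower in FAK-WT, where 15.6% of 11841 genes tested were higher and 25.2% lower. The median of the 6 was 0.29 against -0.08 for all genes tested. Tap2 rose by 0.47 (standard error 0.08, adjusted p = 0.00235, limma) and Tapbp by 0.43 (standard error 0.09, adjusted p = 0.00610), and B2m fell by 0.41 (standard error 0.09, adjusted p = 0.00823) on the log2 scale. H2-D1 changed by 0.15 (95% interval -0.03 to 0.34) and Tap1 by -0.11 (95% interval -0.37 to 0.16), neither past the threshold. Without FAK KO replicate 2, H2-D1 passed, at 0.22 (adjusted p = 0.0445, limma). H2-K1 was at 0.45 (95% interval -0.28 to 1.18, adjusted p = 0.283, limma), a value set by FAK-WT replicate 3, without which it was 0.0042. Chromosome 17 again lay higher, with a median of 0.16 against -0.09 for other chromosomes, and relative to it Tapbp was at 0.25 (adjusted p = 0.0544, limma) and Tap2 at 0.28 (adjusted p = 0.0207, limma). Cd68, the leukocyte marker above 1 FPKM, was at 6.60, 6.97 and 12.3 FPKM in FAK-WT cells, highest in replicate 3, and at 3.02, 3.15 and 2.79 FPKM in FAK KO cells. The summed leukocyte markers ranged from 6.995 to 12.9 FPKM in FAK-WT and from 3.26 to 3.55 FPKM in FAK KO cells. The fibroblast markers summed to 123.1 to 145.3 FPKM in FAK-WT and 90.0 to 126.6 FPKM in FAK KO cells, which overlapped. Col1a1 was higher by 2.70 and Pdgfra by 1.72 in FAK-WT, while Dcn, averaging 112.8 against 99.0 FPKM, was not called changed. Of 8 epithelial and mesothelial markers tested 5 were higher in FAK-WT and 2 lower, with a median log2 fold change of 0.42, and the list summed to 1595 to 1835 FPKM against 1118 to 1291 FPKM in FAK KO cells. The part of these markers in the class I values was not tested.

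FAK-R454 against FAK KO asks what differs where the clone carries FAK without kinase activity, vector and selection included, with 2 samples in the FAK-R454 line. Of the 6 members 0 were higher and 1 lower, where 9.78% of 11818 genes tested were higher and 9.89% lower, and the median of the 6 was 0.09 against -0.03. At an unadjusted p under 0.05, 1 was higher, Tapbp at 0.21 (limma), and with limma-voom 0. Tap1 fell by 0.54 on the log2 scale (standard error 0.12, adjusted p = 0.0193, limma). Leaving out FAK-R454 replicate 1, FAK-R454 replicate 2 or FAK KO replicate 3 ended this call, while the log2 fold change stayed between -0.60 and -0.49. The call was also lost with no filter on low genes (-0.54, adjusted p = 0.0618, limma). Without a FAK-R454 library 1 sample is left in that line, which is then assumed to vary like those of FAK KO. Tap2 differed by 0.07 (95% interval -0.10 to 0.23), H2-K1 by 0.16 (-0.11 to 0.42) and H2-D1 by 0.11 (-0.09 to 0.31). Tapbp and B2m passed only without FAK KO replicate 2, at 0.25 (adjusted p = 0.0250) and -0.28 (adjusted p = 0.0176, limma). Col1a1 and Pdgfra were higher in this line too, by 2.86 and 1.53, while Dcn, averaging 107.7 against 99.0 FPKM, was not called changed. The fibroblast markers summed to 121.7 to 131.7 FPKM, which overlapped the 90.0 to 126.6 FPKM of FAK KO cells. Cd68 was at 4.24 and 4.34 FPKM, above all FAK KO samples and higher by 0.51 (adjusted p = 0.0127, limma), and the leukocyte markers summed to 4.51 to 5.19 FPKM. Of 8 epithelial and mesothelial markers above 1 FPKM in both lines 2 were higher and 0 lower (limma), at an unadjusted p under 0.05 3 and 0, and with limma-voom 2 and 0. By limma 9.01% of all genes above 1 FPKM in both lines were higher and 9.7% lower. Upk3b, a uroplakin of mesothelial cells, was at 31.1 and 32.03 FPKM in FAK-R454 and 3.72, 5.08 and 3.27 FPKM in FAK KO cells, and it was higher by 2.96 on the log2 scale (adjusted p = 4.30e-05, limma). Lrrn4 was at 1.16 and 1.11 FPKM against 0.304, 0.320 and 0.163 FPKM, a log2 fold change of 1.80 (adjusted p = 0.00684, limma), and was tested only because of its FAK-R454 level. The part of these markers in the class I values was not tested.

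Direct comparison of FAK-WT with FAK-R454, the lines that differ in kinase activity of the re-expressed FAK, gave 1 member higher and 0 lower, where 3.38% of 11782 genes tested were higher and 4.44% lower. The lines also differed in Ptk2 mRNA, at 42.3, 42.5 and 45.4 FPKM in FAK-WT and 59.2 and 65.5 FPKM in FAK-R454, which did not overlap, and the part of that difference in the class I values was not tested. The expression table used here holds no protein levels. The median of the 6 was 0.26 against -0.05. At an unadjusted p under 0.05, or with limma-voom, 1 was lower, B2m. Tap2 was higher in FAK-WT by 0.40 (standard error 0.07, adjusted p = 0.0301, limma). Tap1 at 0.44 (adjusted p = 0.0519) and B2m at -0.22 (adjusted p = 0.0543, limma) missed the threshold although their samples did not overlap. Of 8 epithelial and mesothelial markers above 1 FPKM in both lines 4 were higher and 3 lower in FAK-WT, among them Upk3b at -2.09 (adjusted p = 0.00410, limma). Over all genes above 1 FPKM in both lines the shares were 3.09% and 4.2%. Lrrn4 was at -1.56 (adjusted p = 0.0430, limma), tested only because of its FAK-R454 level. The count of members was 4 without FAK-WT replicate 3, when Tap2, Tap1 and Tapbp were higher and B2m lower, and 0 without any of the other libraries in turn. The fold change of Tap2 stayed between 0.34 and 0.44 in these fits, of which those without a FAK-R454 library hold 1 sample of that line and take the spread from FAK-WT alone. The call of Tap2 was also lost with no filter (adjusted p = 0.0506), with no trend (adjusted p = 0.0509) and relative to its chromosome, at 0.25 (adjusted p = 0.115, limma), where the median of chromosome 17 was 0.10 against -0.05 for other chromosomes.

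β-catenin ΔGSK against FAK KO asks what differs with active β-catenin in cells without FAK, with vector and selection as part of the difference. Of the 6 members 2 were higher and 2 lower, where 23.7% of 11915 genes tested were higher and 34.4% lower. The median of the 6 was -0.18 against -0.09, with members in both directions. H2-K1 rose by 1.68 (standard error 0.17, adjusted p = 5.31e-05, limma), a 3.21-fold change, and H2-D1 by 0.90 (standard error 0.08, adjusted p = 2.49e-05), a 1.87-fold change. Tap2 fell by 0.78 (standard error 0.12, adjusted p = 0.000681) and B2m fell by 0.47 (standard error 0.09, adjusted p = 0.00177, limma) on the log2 scale. Tap1 was at -0.26 (adjusted p = 0.0746, limma). Its call was gained relative to its chromosome (-0.30, adjusted p = 0.0436) and without FAK KO replicate 1 (-0.37, adjusted p = 0.0196, limma). With same-numbered samples as blocks Tap1 also passed (-0.26, adjusted p = 0.0180, limma). Tapbp was at -0.10 (95% interval -0.29 to 0.09). The 4 calls of H2-K1, H2-D1, Tap2 and B2m held in each of the 14 other settings tried. H2-K1 lay between 1.499 and 1.85, H2-D1 between 0.83 and 1.01, Tap2 between -0.86 and -0.63 and B2m between -0.56 and -0.37. Another scaling of the libraries moved the median of all genes tested from -0.09 to 0.02, and the changes of these 4 genes are larger than that shift. Chromosome 17 as a whole differed little here, with a median of -0.03 against -0.09. The summed leukocyte markers were lower in β-catenin ΔGSK cells, at 1.18 to 2.33 FPKM, than in FAK KO cells. All 3 fibroblast markers tested were lower too, with a median log2 fold change of -1.77 and a sum of 30.8 to 45.1 FPKM against 90.0 to 126.6 FPKM in FAK KO cells. Dcn averaged 38.6 ± 7.75 FPKM against 99.0 ± 19.9 FPKM (SD, n = 3 each). Col1a1 and Pdgfra entered that test only through their FAK KO level. Of 8 epithelial and mesothelial markers tested 3 were higher and 2 lower. Wt1, a transcription factor of mesothelium, was at 215.2, 230.3 and 235.0 FPKM in β-catenin ΔGSK and 96.3, 96.2 and 101.0 FPKM in FAK KO cells, a log2 fold change of 1.21 (adjusted p = 8.86e-07, limma), and Upk3b was higher by 1.12 (adjusted p = 0.000257, limma). Ctnnb1, the gene of β-catenin, averaged 214.1 ± 8.24 FPKM against 144.6 ± 4.63 FPKM (SD, n = 3 each). The part of these markers in the class I values was not tested.

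**Figure D5:**
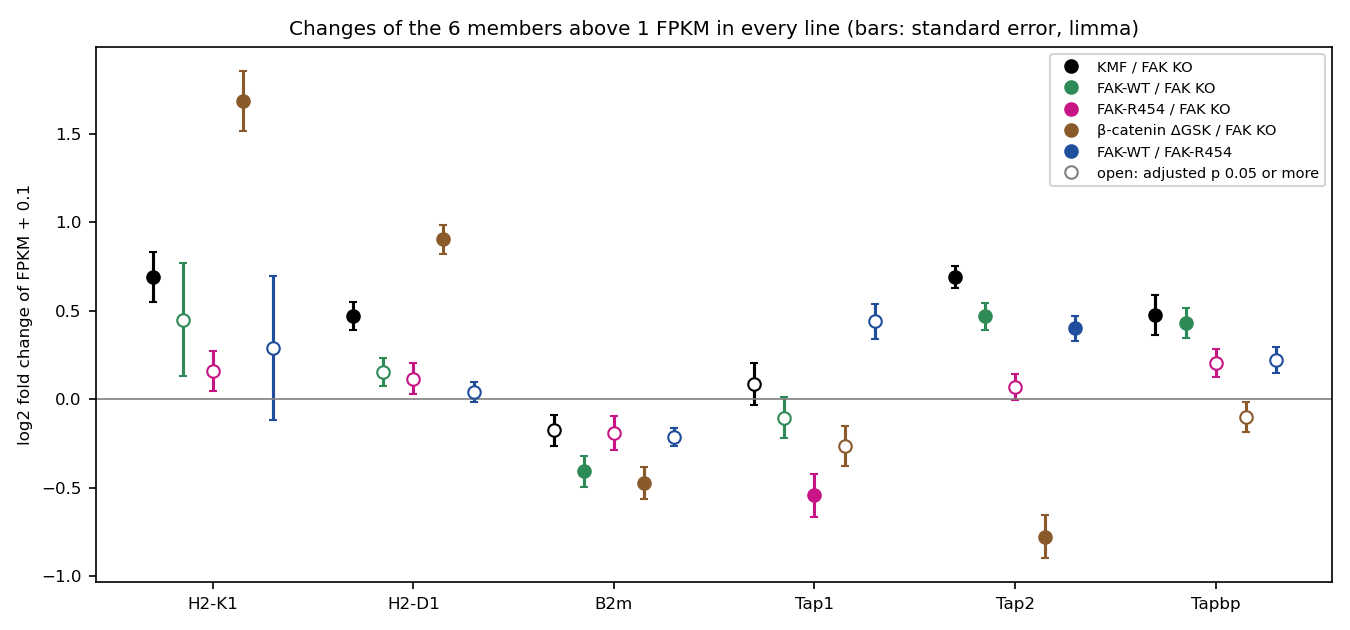
Log2 fold change of FPKM + 0.1 (vertical axis) of the 6 members above 1 FPKM in every line in 5 comparisons, as limma estimates with standard errors. Filled points passed the adjusted p threshold of 0.05. H2-K1 and H2-D1 are raised most in β-catenin ΔGSK over FAK KO, at 1.68 and 0.90, while Tap2 reaches -0.78 there and 0.69 in KMF over FAK KO.

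Other class I and class I-like genes were split in the same comparison. Of 16 such genes, 8 were tested between β-catenin ΔGSK and FAK KO, 2 were higher and 5 lower, with a median log2 fold change of -0.44 against -0.09 for all genes tested. Of the 7 above 1 FPKM in both lines, 2 were higher and 4 lower, against 23.1% and 32.8% of all such genes. Over FAK KO, 5 of 8 were higher and 1 lower in KMF, 3 and 2 in FAK-WT, and 2 and 1 in FAK-R454, and of 7 tested between FAK-WT and FAK-R454 1 was higher and 2 lower. Over all genes tested the shares higher and lower were 23.7% and 34.4% in β-catenin ΔGSK, 23.1% and 28.7% in KMF, 15.6% and 25.2% in FAK-WT, and 9.78% and 9.89% in FAK-R454 over FAK KO, and 3.38% and 4.44% in FAK-WT over FAK-R454. H2-T23 encodes Qa-1, a ligand of the NKG2A receptor of natural killer cells. Its FPKM was 30.4, 32.9 and 29.9 in the β-catenin ΔGSK samples, 39.4, 44.0 and 37.7 in FAK KO and 60.8, 61.2 and 61.3 in FAK-WT. It was 48.2 and 46.1 in FAK-R454 and 53.1, 55.7 and 59.5 in KMF. β-catenin ΔGSK thus held the lowest H2-T23 samples, where H2-K1 and H2-D1 were highest. H2-T23 fell by 0.37 in β-catenin ΔGSK (adjusted p = 0.00319, limma) and rose by 0.60 in FAK-WT (adjusted p = 0.000541) and by 0.47 in KMF (adjusted p = 0.00115, limma) over FAK KO. Hfe, whose product pairs with β2-microglobulin and acts in iron uptake, rose from 5.03 ± 0.509 FPKM in FAK KO to 13.9 ± 0.556 FPKM in β-catenin ΔGSK cells, a log2 fold change of 1.45 (adjusted p = 3.00e-06, limma). H2-M3, which presents formylated peptides, fell from 6.75 ± 0.410 to 3.17 ± 0.297 FPKM (SD, n = 3 each), by 1.07 on the log2 scale (adjusted p = 3.79e-05, limma). Cd1d1, which presents lipids, averaged 8.63 ± 0.654 FPKM in FAK KO and 1.30 ± 0.129 FPKM in KMF, which is -2.64 on the log2 scale (adjusted p = 6.77e-07, limma).

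Regulators of class I genes were called in both directions in β-catenin ΔGSK, KMF and FAK-WT over FAK KO. Of 25 listed regulators and interferon pathway genes, 22 were tested between β-catenin ΔGSK and FAK KO, with 4 higher and 7 lower, near the shares over all genes (23.7% and 34.4%), and a median log2 fold change of -0.13 against -0.09. Of the 21 above 1 FPKM in both lines, 3 were higher and 7 lower, against 23.1% and 32.8% of all such genes. Between KMF and FAK KO 23 were tested, with 9 higher and 4 lower, against 23.1% and 28.7% over all genes. With only the 21 genes above 1 FPKM in both of these lines, 7 were higher and 4 lower, against 22.3% and 27.9% of all such genes. Between FAK-WT and FAK KO 5 of 22 were higher and 3 lower, against 15.6% and 25.2%. Socs1, at 0.636 FPKM in FAK KO, was among these 5 only through its FAK-WT level. With only the 21 above 1 FPKM in both lines, 4 were higher and 3 lower, against 14.6% and 25.3% of all such genes. Between FAK-R454 and FAK KO 1 of 22 was higher, against 9.78%. Of the 21 above 1 FPKM in both of these lines, 1 was higher and 0 lower (limma), with 6 and 1 at an unadjusted p under 0.05 and 4 and 1 with limma-voom. By limma 9.01% of all such genes were higher and 9.7% lower. Between FAK-WT and FAK-R454 1 of 22 was lower, against 4.44%. Nlrc5, the class I transactivator, was at or under 0.0239 FPKM in every library. Irf1 was at 15.4, 18.3 and 19.4 FPKM in β-catenin ΔGSK and at 15.2, 18.2 and 14.3 FPKM in FAK KO cells, which overlapped. Irf2, a repressor of interferon-responsive genes, averaged 13.8 ± 0.485 FPKM in β-catenin ΔGSK and 15.97 ± 0.650 FPKM in FAK KO cells (SD, n = 3 each). Its log2 fold change was -0.21 (adjusted p = 0.0293, limma). Socs1, which restrains cytokine signalling, was at 3.23, 3.10 and 2.17 FPKM in β-catenin ΔGSK cells and at 0.762, 0.503 and 0.644 FPKM in FAK KO cells. Its log2 fold change was 1.99 (standard error 0.20, adjusted p = 5.46e-05, limma), and it entered that test only through its level in β-catenin ΔGSK cells. Of 15 other loading and processing genes, 4 were higher and 6 lower in β-catenin ΔGSK than in FAK KO cells, near the 23.7% and 34.4% over all genes. KMF had 0 higher and 4 lower against shares of 23.1% and 28.7% over all genes, FAK-WT 0 and 4 against 15.6% and 25.2%, and FAK-R454 0 and 2 against 9.78% and 9.89% (limma). At an unadjusted p under 0.05 the higher genes numbered 0, 1 and 2 in these comparisons, and 0 in each with limma-voom. Erap1, which trims peptides in the endoplasmic reticulum, averaged 8.09 ± 1.63 FPKM in β-catenin ΔGSK and 7.66 ± 0.802 FPKM in FAK KO cells (SD, n = 3 each) and passed in none of the 5 comparisons.

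The genes whose log2 levels were most like those of a member over the 14 libraries differed between members. Among 11148 genes H2-K1 was closest to Pfkp, a glycolytic enzyme (Pearson r = 0.96), H2-D1 to Fam132a (r = 0.99), H2-Q1 to Rnase13, Rtn1 and Tnfrsf19 (r = 0.999, 0.999 and 0.998), and H2-Q4 to Gpr116 (r = 0.99). Like H2-Q1, Tnfrsf19 was near 0 in 4 lines and at 12.5 FPKM in β-catenin ΔGSK cells. Since H2-Q1 was chosen for its level in β-catenin ΔGSK cells, genes present only there correlate with it, and these r values restate that choice. B2m was closest to Mterfd1 (r = 0.99), Tap2 to Eva1c (r = 0.98), Tapbp to Pgam5 (r = 0.97), Psmb8 to Ptpn3 (r = 0.93), Psmb9 to Dsp, the gene of desmoplakin (r = 0.94), and Tap1 to Map3k6 (r = 0.86). Among members, H2-K1 and H2-D1 correlated at r = 0.81. These are descriptions over libraries that share lines, so the 14 points are not independent.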

How the data were processed

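Poly(A) RNA of 14 tumorsphere samples was sequenced as unstranded paired-end libraries. The authors deposited FPKM per gene for 35275 genes. The study names TopHat2, whereas the submitters' processing notes name STAR 2.5 and mm10. The counting tool, annotation and treatment of multi-mapping fragments are not given in the sources used here. The deposited FPKM times gene length gave whole fragments for 100% of values (tolerance 0.01), so depth is known, at 25390558 to 35289859 fragments per library. Since the deposited unit is FPKM, a count model was not the main test, and limma 3.58.1 (R 4.3.3) was run on log2(FPKM + 0.1) with a mean-variance trend, on the 2 lines compared and genes with a mean above 1 FPKM in either. Genes changed at a Benjamini-Hochberg adjusted p under 0.05. The procedure was tested on simulated data. Members and lists were chosen with earlier results of these data known. All members were named, and from each other list the genes changed 2-fold in a comparison (at most the 3 largest) plus fixed regulators, of which 1 is not reported here. Pvrl2 and Emr1 were matched by RefSeq synonyms for Nectin2 and Adgre1, and H2-T9 was unmatched. Likeness was the Pearson correlation over samples. Alternatives were a pseudocount of 1, no filter or a filter of 5 FPKM, median-of-ratios scaling, 1 fit of all lines, no trend, a replicate block, limma-voom of recovered fragments, centring on each chromosome, and leaving out each sample. Promoter sequences are from RefSeq. No fold changes or p-values of the authors were used.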

Additional observations from a re-analysis of the deposited data

How the results depend on the processing

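The counts of changed members in β-catenin ΔGSK, KMF and FAK-WT over FAK KO stayed within 1.5 times their values of 4, 4 and 3 in every setting, including those that left out a library. The count for FAK-R454 over FAK KO was 1, and it became 0 without a filter on low genes and 0 to 3 when libraries were left out, with 3 without FAK KO replicate 2 and 0 without FAK KO replicate 3 or either FAK-R454 library. The count for FAK-WT over FAK-R454 was 1. It became 0 with no filter, with no trend and with chromosome centring, 2 with median-of-ratios scaling and with 1 fit of all lines, 3 with limma-voom, and 0 to 4 when libraries were left out. With the replicate block that count was 4, but FAK-WT replicate 3 has no partner and drops out of that fit. Same-numbered samples did not deviate together in every pair (correlations from -0.27 to 0.48 across genes), so the numbers were not taken to pair the samples. Those between β-catenin ΔGSK and FAK KO were all above 0, at 0.481, 0.321 and 0.0972. The block, like chromosome centring and leaving out FAK KO replicate 1, brought Tap1 past the threshold in β-catenin ΔGSK over FAK KO (-0.26 with the block, adjusted p = 0.0180, limma). Directions that reversed were all of changes under the threshold, and the cause was not tested. With chromosome centring H2-D1 became -0.028 in FAK-WT over FAK KO and -0.11 in FAK-WT over FAK-R454, and Tap1 became -0.16 in KMF over FAK KO. Tapbp in β-catenin ΔGSK over FAK KO became 0.0041 with median-of-ratios scaling. H2-K1 in FAK-WT over FAK-R454 became -0.15 with the block. With libraries left out it ranged from -0.15 (without FAK-WT replicate 3) to 0.54, H2-D1 in the same comparison from -0.0043 (without FAK-R454 replicate 2) to 0.086, and Tap1 in KMF over FAK KO from -0.022 (without FAK KO replicate 1) to 0.17, with -0.0058 without KMF replicate 2. H2-K1 in KMF over FAK KO lost its call with 1 fit of all lines (adjusted p = 0.0583, limma). Of 186 values of members with a library left out 167 kept direction and call, as did 273 of 294 under other alternatives. These totals include H2-Q4 in β-catenin ΔGSK and Psmb8 and Psmb9 in KMF over FAK KO, which entered only through their higher line. Each kept its call in all 14 settings in which it was tested, which raises the totals. Where 1 FAK-R454 library was left out, the other was assumed to vary like the line it was compared with. Depth limits Psmb8 and H2-Q4, with as few as 10 and 8 fragments in a library.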

Other observations

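MHC class II genes, which present peptides to CD4 T cells, were scarce. Of 9 class II genes at most 1 exceeded 1 FPKM in any line. Cd74, the invariant chain, was at 2.25, 2.46 and 1.85 FPKM in KMF and 3.04, 2.40 and 1.24 FPKM in FAK-WT cells, against 0.542, 0.598 and 0.861 FPKM in FAK KO cells. The KMF and FAK-WT samples lay above FAK KO, with log2 fold changes of 1.59 (adjusted p = 0.000255) and 1.54 (adjusted p = 0.00658, limma), and Cd74 entered both tests only through the higher line. H2-Eb1, a class II β chain, was at 0.952, 0.832 and 1.23 FPKM in β-catenin ΔGSK cells and at 0.337, 0.227 and 0.272 FPKM in FAK KO cells. KMF cells, at 1.08, 0.787 and 0.455 FPKM, and FAK-WT cells, at 1.42, 0.850 and 0.376 FPKM, overlapped β-catenin ΔGSK. The FAK-R454 samples were at 0.152 and 0.0800 FPKM.

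Of 14 interferon-stimulated genes above 1 FPKM in both β-catenin ΔGSK and FAK KO cells, 0 were higher and 6 lower in β-catenin ΔGSK (limma), where 23.1% of all genes above 1 FPKM in both lines were higher and 32.8% lower. At an unadjusted p under 0.05 the counts were 0 and 7, and with limma-voom 0 and 6. Their median log2 fold change was -0.14 against -0.08 for all such genes. Usp18, which removes ISG15 from proteins, was at 1.69, 1.94 and 2.15 FPKM against 0.525, 0.455 and 0.424 FPKM. Oas2, which activates RNase L, was at 0.0356, 0.0199 and 0.0686 FPKM against 1.71, 1.13 and 1.29 FPKM. It was also low in KMF, at 0.122, 0.226 and 0.114 FPKM, and in FAK-R454, at 0.327 and 0.239 FPKM, but not in FAK-WT cells, at 0.948, 1.68 and 0.973 FPKM. Samd9l, an antiviral and growth-restraining gene, was at 0.588, 0.362 and 0.287 FPKM in β-catenin ΔGSK and at 3.13, 2.23 and 2.74 FPKM in FAK KO cells. Usp18, Oas2 and Samd9l were each above 1 FPKM in only 1 of these 2 lines. Among the 18 listed genes above 1 FPKM in both FAK-WT and FAK KO cells, 1 was higher and 3 lower in FAK-WT (limma). The shares of all such genes were 14.6% and 25.3%. Among the 16 above 1 FPKM in both KMF and FAK KO cells, 3 were higher and 4 lower in KMF (limma), against 22.3% and 27.9% of all such genes. Ifit3 was at 2.13, 3.48 and 1.82 FPKM in FAK-WT cells, against 0.818, 0.901 and 1.04 FPKM in FAK KO cells. Irf7, a transcription factor of the interferon response, and Ifit2, which restrains translation of viral RNA, were likewise below 1 FPKM on average in FAK KO cells. Irf7 was at 1.14, 1.23 and 0.559 FPKM there, at 1.44, 2.85 and 2.41 FPKM in FAK-WT and at 2.12, 2.32 and 2.55 FPKM in KMF cells. Ifit2 was at 1.35, 1.75 and 1.65 FPKM in FAK-WT and at 0.844, 0.603 and 0.711 FPKM in FAK KO cells. Cd80, a ligand of CD28 and CTLA-4 on T cells, was at 0.145, 0.162 and 0.140 FPKM in β-catenin ΔGSK cells and at 1.25, 1.105 and 1.30 FPKM in FAK KO cells, a log2 fold change of -2.40 (adjusted p = 2.13e-05, limma), tested only because of its FAK KO level. It belongs to a list of 12 ligands of natural killer and T cells. Among the 5 above 1 FPKM in both lines, 1 was higher and 2 lower (limma), against 23.1% and 32.8% of all such genes. Pvrl2 went the other way from Cd80, averaging 115.5 FPKM in β-catenin ΔGSK and 80.1 FPKM in FAK KO cells.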
